A study of Mus musculus with 8 samples.

Results

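The genes of mitochondrial ribosomal proteins were taken as the protein-coding rows of the mouse gene table whose names begin with Mrpl or Mrps followed by a number, which gave 78 of 54251 genes. Of these, 49 are named Mrpl and 29 Mrps, and the description in the table calls all 78 a mitochondrial ribosomal protein. They lie on 17 chromosomes, with 11 genes on chromosome 11 and 8 on chromosome 17. Their levels were measured by sequencing of polyadenylated RNA from kidneys of adult male C57BL/6 mice. The WT libraries came from wild-type mice and the KO libraries from mice with a knockout of G9a described as kidney-specific, where G9a is the histone H3 lysine 9 methyltransferase encoded by Ehmt2. WT_IR and KO_IR are those genotypes after unilateral ischemia-reperfusion (IR), with the left renal pedicle clamped for 45 min and tissue taken on day 3. Each of the 4 groups has 2 libraries and each library is a pool of 3 mice, so that all errors and p-values measure the spread between pools. The promoter or Cre line behind the knockout, and whether WT and KO are unoperated mice or the uninjured kidney of operated mice, are not stated in the labels.

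Mitochondria carry their own ribosome, which translates the few messenger RNAs encoded in mitochondrial DNA into core subunits of the respiratory chain and ATP synthase. Its ribosomal RNAs are transcribed inside the organelle, while its proteins are encoded in the nucleus, made in the cytosol and imported. Some of these proteins have counterparts in bacterial ribosomes and others are found in mitochondria only. Kidney tubules, the proximal tubule above all, are rich in mitochondria and depend on oxidative phosphorylation for solute transport.

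Levels are given in FPKM, fragments per kilobase of gene length with a scaling per library, as deposited by the authors. The denominators implied by the values were 0.921 to 1.19 times the gene total of the library. The libraries held 14965670 to 17596690 fragments, of which 42124 to 65110 fell on the 78 genes. A mean of at least 0.5 FPKM over the 8 libraries was needed for testing, which 15607 genes and 76 of the 78 members reached. Mrpl53 and Mrps10, a large-subunit and a small-subunit protein, are listed at 0 in all 8 libraries. Of the annotated exon bases of Mrpl53, 88.0% are shared with Gm42688 on the same strand. Marker genes of the proximal tubule and the distal nephron were present in every library. The FPKM of Ehmt2 were 33.4 and 30.3 (WT), 28.1 and 26.4 (KO), 34.5 and 35.8 (WT_IR), and 27.3 and 26.3 (KO_IR). Knockout libraries were lower, but most of the signal remained in these whole-gene values, and genotypes are taken from the labels.

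The 250 bases before the annotated start are shown for Mrpl12 and Mrps21, the members that fell most in wild-type kidney, for Mrpl34, the member with the highest mean level, and for Mrpl33 and Mrps18c, which did not fall. They are RefSeq sequences of GRCm38.p6, given 5′ to 3′ along the gene's strand, from chr11:120484387-120484636 (plus strand), chr3:95871515-95871764 (minus strand), chr8:71464676-71464925 (plus), chr5:31613701-31613950 (plus) and chr5:100798509-100798758 (plus). The starts are those of RefSeq and can differ from those of the gene models measured. The stretch of Mrpl33 lies inside its measured gene model, which spans chr5:31596935-31664384, and not before it. Capitals mark matches to a binding motif of NRF1 (GCGCA, any base and GCGC) or of ETS factors such as GABP (CCGGAAG), on either strand.
Mrpl12: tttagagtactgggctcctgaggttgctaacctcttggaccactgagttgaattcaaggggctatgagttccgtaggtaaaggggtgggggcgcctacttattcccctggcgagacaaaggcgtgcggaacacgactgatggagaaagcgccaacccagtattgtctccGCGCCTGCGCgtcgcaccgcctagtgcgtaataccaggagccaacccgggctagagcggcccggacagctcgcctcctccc
Mrps21: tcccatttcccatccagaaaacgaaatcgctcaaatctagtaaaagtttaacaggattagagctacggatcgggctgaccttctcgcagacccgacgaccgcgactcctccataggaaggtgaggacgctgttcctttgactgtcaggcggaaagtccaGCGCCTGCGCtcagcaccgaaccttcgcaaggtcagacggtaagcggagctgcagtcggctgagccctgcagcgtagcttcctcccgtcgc
Mrpl34: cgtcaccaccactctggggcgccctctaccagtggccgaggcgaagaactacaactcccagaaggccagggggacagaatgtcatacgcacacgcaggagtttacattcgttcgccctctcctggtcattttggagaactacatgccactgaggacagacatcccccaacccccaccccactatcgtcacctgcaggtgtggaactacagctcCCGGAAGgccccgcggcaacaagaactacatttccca
Mrpl33: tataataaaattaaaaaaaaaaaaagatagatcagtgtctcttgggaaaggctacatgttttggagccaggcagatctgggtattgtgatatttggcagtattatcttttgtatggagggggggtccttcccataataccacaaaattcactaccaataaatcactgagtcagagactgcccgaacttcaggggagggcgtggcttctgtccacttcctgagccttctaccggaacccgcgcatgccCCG
Mrps18c: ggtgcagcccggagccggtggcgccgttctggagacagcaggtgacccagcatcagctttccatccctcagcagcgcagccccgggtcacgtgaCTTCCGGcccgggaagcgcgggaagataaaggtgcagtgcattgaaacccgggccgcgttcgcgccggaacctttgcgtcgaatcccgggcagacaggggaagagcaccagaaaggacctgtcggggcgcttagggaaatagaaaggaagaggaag
In Mrpl12 and Mrps21 the same letters, GCGCCTGCGC, lay from -81 to -72 and from -91 to -82 relative to the start. Mrpl34 held CCGGAAG from -37 to -31, Mrps18c its reverse complement from -156 to -150, and Mrpl33 a match that began at -3 and ran past the start, so only its first letters are in the printed stretch. Matches were thus present both in members that fell and in members that did not.

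RefSeq windows of 300 bases, 250 before and 50 after the start, were found for 69 of the 78 members, and all their windows were searched. No window was matched for Mrpl4, Mrpl13, Mrpl15, Mrpl19, Mrpl38, Mrpl54, Mrps28, Mrps34 and Mrps35. The NRF1 letters were found in 13 members, which is 18.8% of the 69, against 5.19% of all genes with a window and 11.01% of the protein-coding genes tested here. The ETS letters were found in 26 members (37.7%), against 9.93% of all genes with a window and 19.3% of those coding genes. The letters AAGATGG of YY1, a zinc-finger regulator, were found in 13 members (18.8%), against 7.28% and 8.25%. Since the ETS letters end as those of YY1 begin, matches to both can overlap. At least 1 of the 3 motifs was held by 43 members (62.3%), and by 33.4% of the coding genes tested. A match is a description of letters and not evidence of a bound factor.

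In wild-type kidney the mitochondrial ribosomal protein genes fell as a group after IR. Summed over the 78 genes, the WT libraries held 1923 and 2204 FPKM and the WT_IR libraries 1241 and 1274 FPKM, so the groups did not overlap. Of the 76 genes tested, 60 fell and 1 rose at an adjusted p under 0.05 (limma, Benjamini-Hochberg over all genes tested), where 23.2% of all genes tested fell and 19.1% rose. Both WT_IR libraries were below both WT libraries for 70 members (38.2% of all genes) and above them for 1 (33.9% of all genes). The median log2 change of the members was -0.54, with a range from -1.20 to 0.41, and that of all genes tested was -0.02. In bulk kidney RNA, fewer cells of a type and less RNA per cell cannot be told apart.

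The count of falling members depended on the scale. The deposited values of the WT_IR libraries imply a denominator 1.18 and 1.19 times their gene total, against 0.921 to 1.03 times in the others. When each library was rescaled to a fixed sum (TPM), the median of all genes tested moved from -0.02 to 0.43 and that of the members from -0.54 to -0.10, with 14 members lower and 9 higher (9.96% and 48% of all genes). Relative to the median of all genes the members' median was -0.52 on the deposited scale and -0.53 on the TPM scale. Rescaling whole libraries shifts all genes by nearly the same amount, so this near equality was fixed in advance and is not a test. As a share of all fragments the members made up 0.331% and 0.370% in WT and 0.281% and 0.292% in WT_IR.

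**Figure D1:**
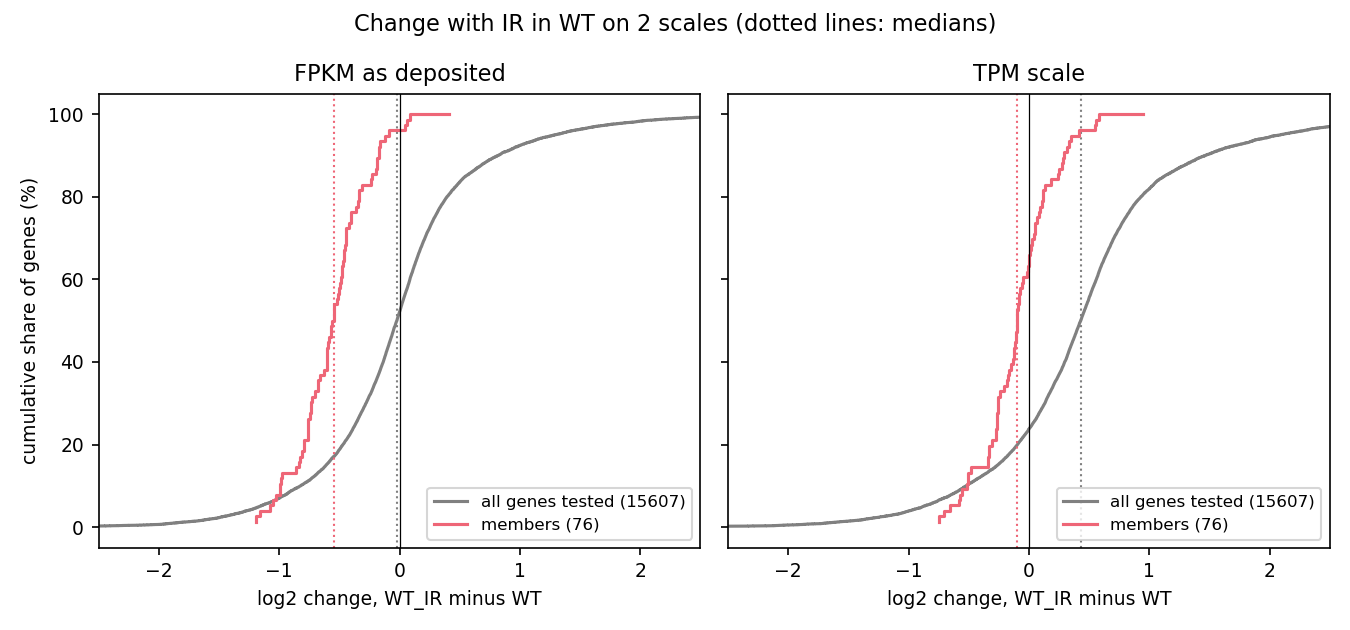
Cumulative share of genes (y axis, %) by log2 change WT_IR minus WT (x axis) for the 76 members tested and all 15607 genes, on log2(FPKM + 1) as deposited (left) and on the TPM scale (right). Dotted lines are medians. The members' curve lies to the left of all genes, by -0.52 and -0.53 at the median, a gap that rescaling whole libraries leaves nearly unchanged by construction.

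Marker genes of kidney cell types moved with this result. The summed level of 6 proximal tubule markers was 2678 and 2972 FPKM in WT and 724 and 950 FPKM in WT_IR, and that of 4 distal nephron markers went from 2086 and 2614 FPKM to 1239 and 1385 FPKM. The 5 macrophage markers summed to 35.7 and 43.3 FPKM in WT and 302 and 320 FPKM in WT_IR, and the 4 fibroblast and pericyte markers to 8.92 and 14.3 FPKM and to 134 and 147 FPKM. None of these markers was at 0 in all 8 libraries, and their part in the fall of the ribosomal protein genes was not tested.

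Among the large-subunit proteins, Mrpl12, the stalk protein that also binds the mitochondrial RNA polymerase, fell most (chr11:120484613-120489065). It stood at 87.0 and 74.0 FPKM in WT and at 34.9 and 34.0 FPKM in WT_IR, a log2 change of -1.20 ± 0.10 (SE, adjusted p = 0.000174, limma). The KO libraries held 67.3 and 69.0 FPKM and the KO_IR libraries 68.0 and 61.7 FPKM. Only the WT_IR libraries stood low for Mrpl12, with no overlap with any other group. Its partner in the stalk, Mrpl10, fell by 0.83 on the log2 scale ± 0.09, from 46.0 and 42.0 FPKM to 23.2 and 25.3 FPKM.

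Mrpl34, a small large-subunit protein of a bacterial family (chr8:71464959-71465747), had the highest mean level of the members. It stood at 151 and 121 FPKM in WT, 62.8 and 64.1 FPKM in WT_IR, 107 and 136 FPKM in KO, and 107 and 110 FPKM in KO_IR. The WT_IR libraries were again below all others, and the change in WT was -1.08 ± 0.15 on the log2 scale. Mrpl28, whose bacterial counterpart is bL28, went from 82.8 and 63.2 FPKM to 31.2 and 37.9 FPKM (-1.05 ± 0.15). Mrpl4 and Mrpl16, members of the uL4 and uL16 families, both changed by -0.99 on the log2 scale. Mrpl2 of the uL2 family, near the peptidyl transferase centre, was another abundant member and changed by -0.81 ± 0.10 on the log2 scale.

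Several large-subunit proteins have roles beyond the ribosomal core. Mrpl44, which has an RNase III-like fold, stood at 25.4 and 25.1 FPKM in WT and 15.6 and 17.2 FPKM in WT_IR (-0.59 ± 0.08). Mrpl45, which anchors the ribosome at the inner membrane, went from 22.0 and 18.6 FPKM to 15.3 and 14.3 FPKM (-0.42 ± 0.12). Mrpl58, a peptidyl-tRNA hydrolase that rescues stalled ribosomes, went from 16.2 and 14.5 FPKM to 10.3 and 11.2 FPKM (-0.47 ± 0.11). All 3 fell with no overlap between WT and WT_IR on the deposited scale, and on the TPM scale the changes of Mrpl45 (0.06) and Mrpl58 (0.0029) were slightly positive.

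Among the small-subunit proteins, Mrps21 of the bS21 family (chr3:95862634-95871519) fell most. It stood at 148 and 116 FPKM in WT, 57.7 and 58.5 FPKM in WT_IR, 101 and 121 FPKM in KO, and 110 and 108 FPKM in KO_IR. The change in WT was -1.16 ± 0.14 on the log2 scale (adjusted p = 0.000653, limma), with the WT_IR libraries below all others. Mrps34, a protein found in mitochondria only, changed by -1.03 ± 0.13 on the log2 scale, but 77.8% of its annotated bases are shared with Mapk8ip3 and a further gene. Mrps6, an abundant member of the bS6 family, changed by -0.76 ± 0.15 on the log2 scale.

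Mrps12, a protein of the decoding centre, went from 47.5 and 38.9 FPKM to 25.9 and 27.8 FPKM in WT_IR (-0.66 ± 0.13). Mrps24 of the uS3 family went from 56.9 and 48.0 FPKM to 29.5 and 28.5 FPKM (-0.83 ± 0.12). Mrps36, named as a ribosomal protein and since described as a subunit of the 2-oxoglutarate dehydrogenase complex, went from 38.3 and 34.3 FPKM to 18.3 and 17.3 FPKM (-0.99 ± 0.12). The groups did not overlap for any of these 3 genes.

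**Figure D2:**
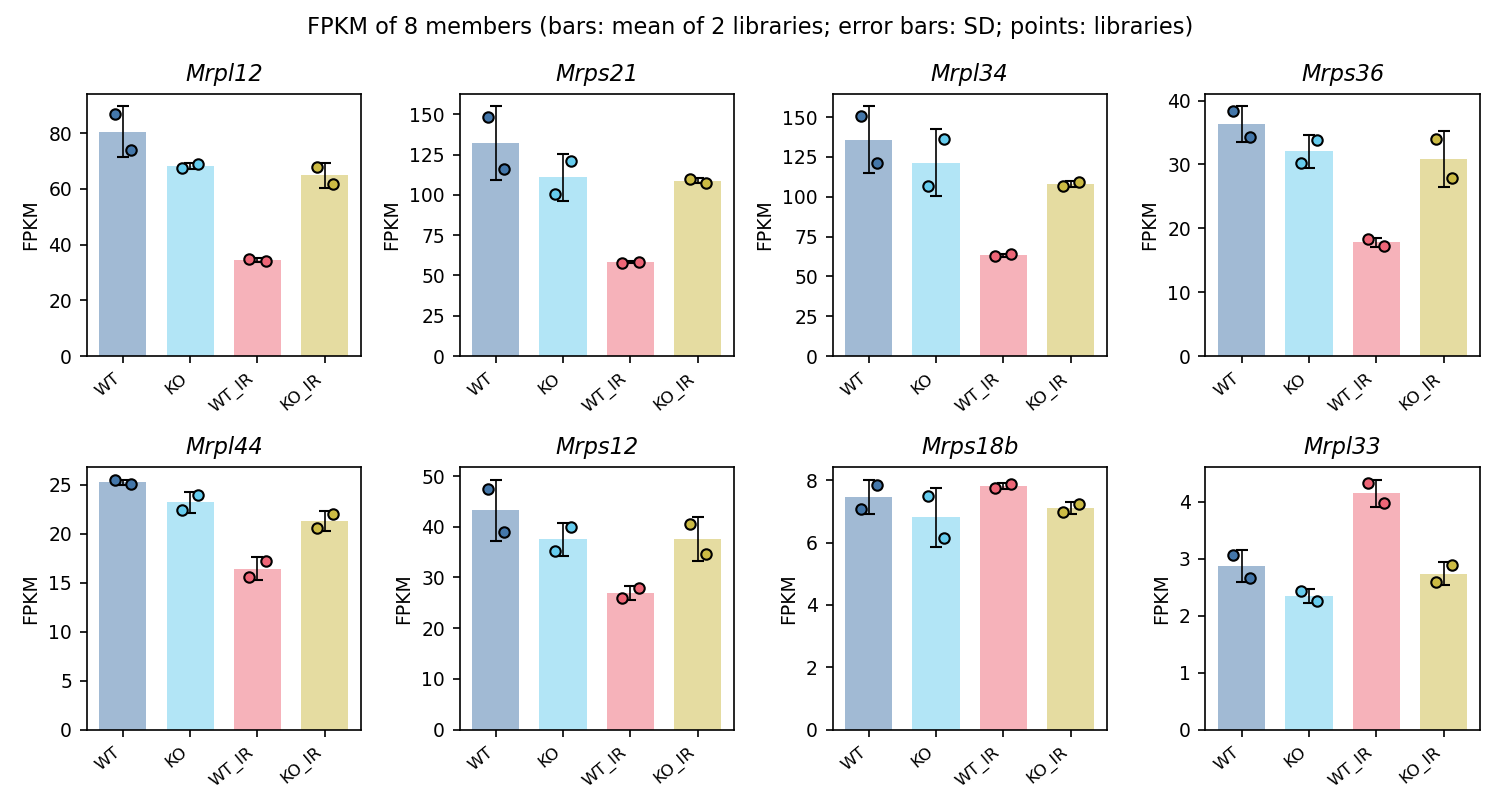
FPKM of 8 members by group; bars are means of 2 libraries, error bars the SD and points the libraries. For Mrpl12, Mrps21, Mrpl34, Mrps36, Mrpl44 and Mrps12 the WT_IR libraries are the lowest, Mrps18b shows no such gap, and Mrpl33 is highest in WT_IR.

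The members that did not fall included Mrpl33, the only one that rose. Mrpl33, a small protein of the bL33 family (chr5:31596935-31664384), stood at 3.07 and 2.67 FPKM in WT, 4.32 and 3.98 FPKM in WT_IR, 2.43 and 2.26 FPKM in KO, and 2.59 and 2.89 FPKM in KO_IR. The WT_IR libraries were above all others, and the log2 change in WT was 0.41 ± 0.10 (adjusted p = 0.0167, limma), and 0.95 on the TPM scale. Its level was the second lowest of the members tested. The gene model of Mrpl33 in the table is 7326 bases long, of which 3.56% are shared with another gene.

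Of the proteins of the bS18 family, Mrps18b and Mrps18c belong to the small subunit and Mrps18a to the large one. Mrps18a went from 15.8 and 13.0 FPKM in WT to 10.2 and 10.1 FPKM in WT_IR, a log2 change of -0.46 ± 0.11. Mrps18b stood at 7.09 and 7.87 FPKM in WT and 7.74 and 7.89 FPKM in WT_IR, and Mrps18c at 9.40 and 8.42 FPKM and at 8.83 and 10.2 FPKM. The groups overlapped for Mrps18b and Mrps18c, whose log2 changes were 0.06 ± 0.11 and 0.09 ± 0.12, and not for Mrps18a. On the TPM scale Mrps18a changed sign (0.02) and Mrps18b and Mrps18c passed the test as higher (0.55 and 0.59).

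The other members with the least negative changes were the large-subunit proteins Mrpl52, Mrpl40, Mrpl23, Mrpl19 and Mrps30, at log2 changes of 0.05, -0.08, -0.12, -0.16 and -0.17. None of these passed the test on the deposited scale. On the TPM scale they were all above 0, and Mrpl52, Mrpl40 and Mrpl23 passed as higher. Mrps30, named for the small subunit, is a large-subunit protein in the mammalian ribosome.

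Mrps23 varied most between replicates. It stood at 6.37 and 2.65 FPKM in WT, 3.52 and 0.480 FPKM in KO, 2.36 and 1.07 FPKM in WT_IR, and 9.15 and 2.71 FPKM in KO_IR. Replicate 1 was the higher library in every group. Both WT_IR libraries lay below both WT libraries, but a log2 change of -0.98 ± 0.67 did not pass the test.

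**Figure D3:**
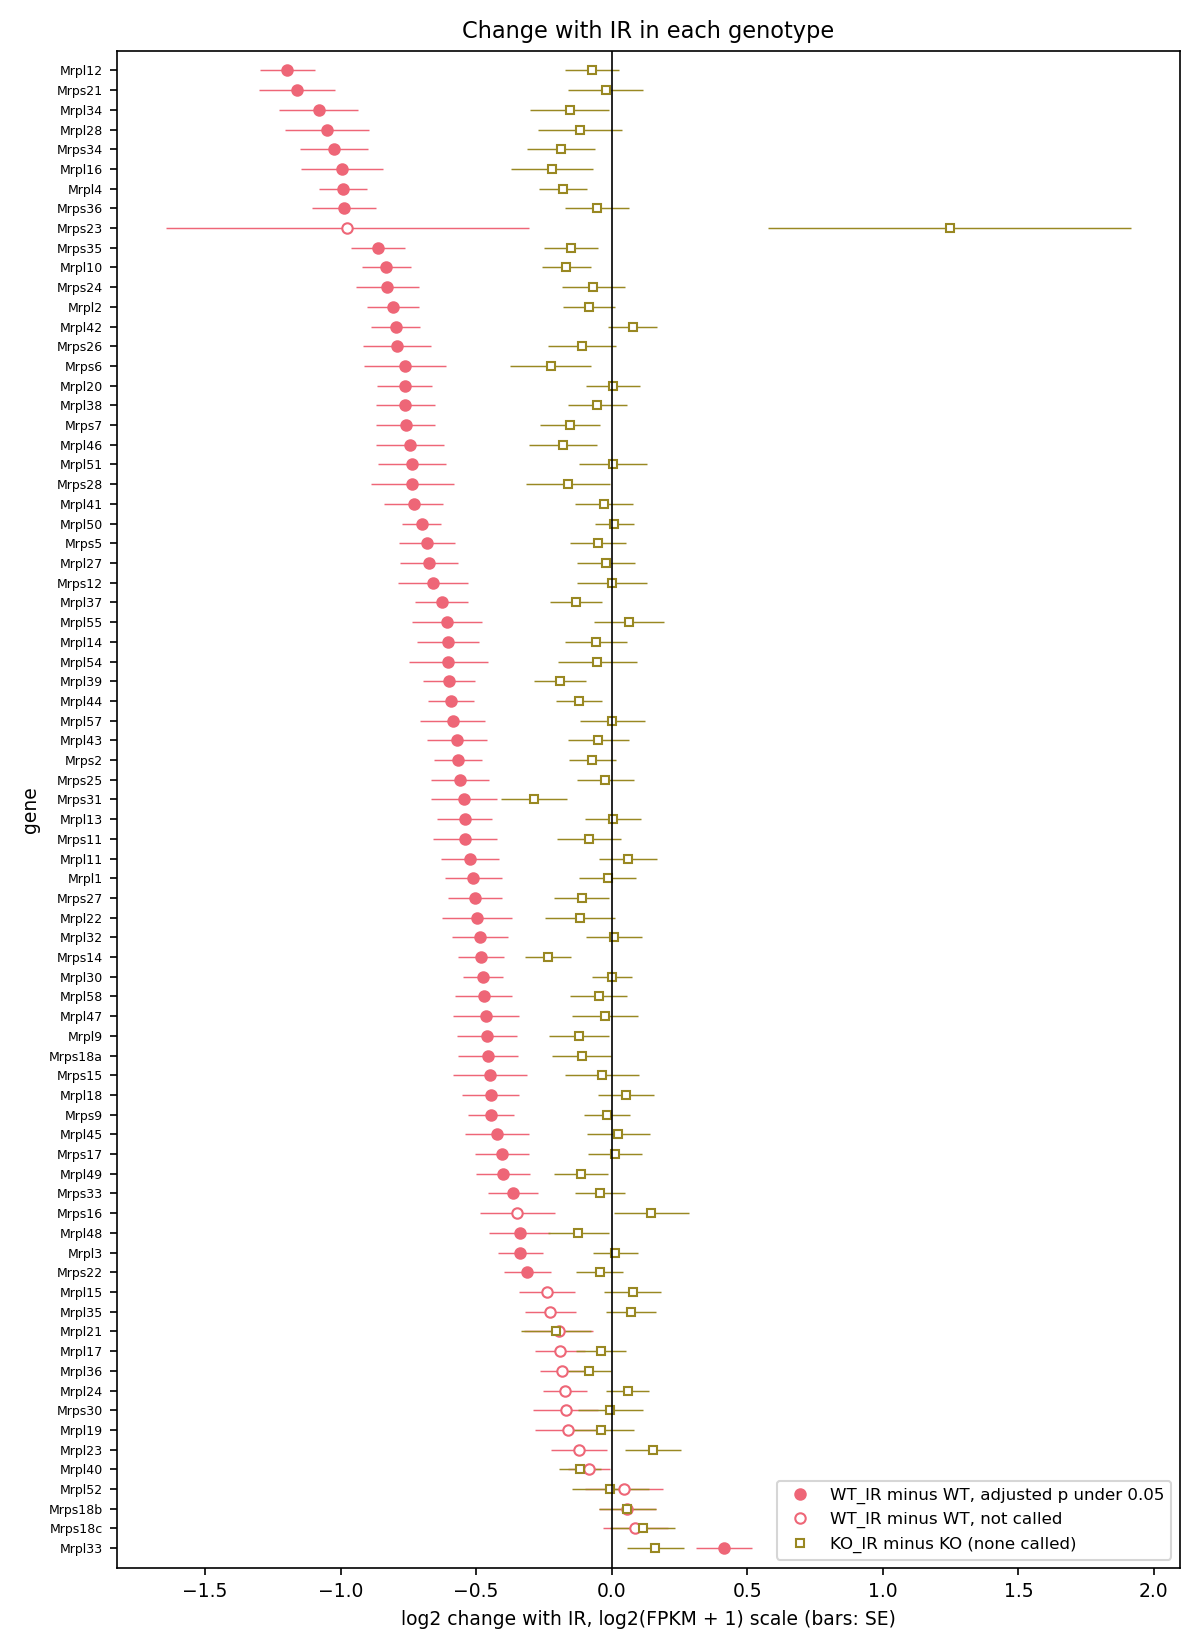
Log2 change with IR for each of the 76 members tested, WT_IR minus WT (circles, filled where the adjusted p is under 0.05) and KO_IR minus KO (squares), on log2(FPKM + 1) with bars of 1 SE. In WT 60 members lie at called values below 0 and Mrpl33 above 0 (23.2% and 19.1% of all genes tested), while the KO values gather near 0 with none called. On the TPM scale 14 members were lower and 9 higher in WT (9.96% and 48% of all genes tested).

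Members of both subunits passed the test as lower in wild-type kidney. Of 50 large-subunit genes tested 38 fell and 1 rose (median log2 change -0.52), and of 26 small-subunit genes 22 fell (-0.56), with Mrps18a and Mrps30 counted in the large subunit. Of 46 genes of bacterial families 34 fell and 1 rose (-0.49), and of 30 genes found in mitochondria only 26 fell (-0.60). Mrps36, since described as a subunit of another complex, was kept by its name among the small-subunit genes and those in mitochondria only that fell. On the TPM scale 8 large-subunit genes were lower and 7 higher, 6 small-subunit genes lower and 2 higher, 9 of bacterial families lower and 7 higher, and 5 of those in mitochondria only lower and 2 higher. Of all genes tested 23.2% fell and 19.1% rose on the deposited scale, and 9.96% and 48% on the TPM scale. The difference between these classes was not tested.

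The size of the change went with the level of the gene. Among the 19 members with the highest mean level (32.3 to 107 FPKM) 18 fell, with a median log2 change of -0.76, and among the 19 with the lowest (2.79 to 7.20 FPKM) 11 fell, with a median of -0.34. The share of all genes tested that fell was 23.2%. Across the 76 genes the Spearman correlation of the change in WT with mean FPKM was -0.58, and it was -0.50 with a pseudocount of 0.1 FPKM in place of 1 and -0.29 over all genes tested. The correlation with gene length was 0.37 (0.09 over all genes tested). These points share the same 8 libraries, a pseudocount lowers the change of genes at low levels, and the correlations are given as a description. The motif classes differed little in their median log2 change, with -0.59 for 13 members with and -0.52 for 54 without the NRF1 letters, -0.46 for 25 with and -0.56 for 42 without the ETS letters, and -0.50 for 13 with and -0.53 for 54 without the YY1 letters.

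In G9a knockout kidney no member passed the test after IR in either direction, where 0.0769% of all genes tested fell and 0.948% rose (0.0833% and 1.55% on the TPM scale, again with no member called). At an unadjusted p under 0.05 there were 2 of the 76 members and 1991 of the 15607 genes tested (limma). On recovered fragments voom also called 0 members. The summed level was 1741 and 1906 FPKM in KO and 1671 and 1794 FPKM in KO_IR, which overlap. The median log2 change of the members was -0.05, and 0.02 on the TPM scale, against -0.02 and 0.04 for all genes. Both KO_IR libraries were below both KO libraries for 19 members and above them for 3, where the shares over all genes were 23.2% and 20.2%.

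The members with the smallest p in the knockout were Mrps14 of the uS14 family, at a log2 change of -0.23 ± 0.08, and the mitochondria-specific Mrps31, at -0.29 ± 0.12. Mrps14 stood at 11.9 and 13.4 FPKM in KO and 10.5 and 10.7 FPKM in KO_IR, and Mrps31 at 10.1 and 8.77 FPKM and at 8.48 and 6.68 FPKM. These groups did not overlap, but the adjusted p was 0.305 for Mrps14 and 0.391 for Mrps31 (limma). Mrpl4 (-0.18), Mrpl39 (-0.19) and Mrps23 (1.25 ± 0.67) followed.

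Without IR no member differed between knockout and wild type by the test, where 0.0577% of all genes tested were lower in KO and 0.16% higher (0.0641% and 0.179% on the TPM scale, again with no member called). At an unadjusted p under 0.05 there were 5 of the 76 members and 1854 of the 15607 genes tested (limma), and voom called 0 members. The log2 difference was negative in 69 of 76 members, with a median of -0.14, against -0.0043 for all genes. On the TPM scale it was negative in 56, with a median of -0.06 against 0.07 for all genes. The size rested on the WT pools, with a median on the deposited scale of -0.07 without WT replicate 1 and of -0.23 without WT replicate 2. Both KO libraries were below both WT libraries for 32 members (21.8% of all genes) and above them for 1 (21.2%). The members with the smallest p were the large-subunit proteins Mrpl20 (-0.29), Mrpl45 (-0.32), Mrpl11 (-0.28), Mrpl38 (-0.27) and Mrpl54 (-0.35), none under an adjusted p of 0.332. Mrpl20 stood at 40.8 and 41.6 FPKM in WT and 30.8 and 36.7 FPKM in KO, without overlap.

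Other gene families also had negative differences between KO and WT. Of 76 cytosolic ribosomal protein genes 71 had one (median -0.19), and of 79 nuclear respiratory chain genes 74 (-0.29), with none called in either list. The 5 macrophage markers were each higher in both KO libraries than in either WT library, with sums of 48.6 and 64.3 FPKM against 35.7 and 43.3 FPKM. None of these 5 passed after adjustment and all 5 were under an unadjusted p of 0.05 (limma). The fibroblast and pericyte sum was 14.8 and 16.2 FPKM in KO against 8.92 and 14.3 FPKM in WT. The sums of the tubule markers were not lower in KO. Of the 6 proximal tubule markers 2 had a negative and 4 a positive log2 difference, and all 4 distal nephron markers had a positive one. Both KO libraries were below both WT libraries for 1 proximal tubule marker and above them for 2. The proximal tubule sum was 2953 and 3170 FPKM in KO against 2678 and 2972 FPKM in WT. The distal nephron sum was 2354 and 3086 FPKM against 2086 and 2614 FPKM, and the groups overlapped in both tubule sums. The part of these markers in the differences between KO and WT was not tested.

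The WT libraries themselves differed. Replicate 1 of WT was above replicate 2 in 63 of the 76 members, with a median ratio of 1.12, where the median ratio over all genes tested was 1.00. In KO_IR replicate 1 was above replicate 2 in 59 members (median ratio 1.08), in KO in 27 and in WT_IR in 32. Shifts across many members were thus also present between pools of 1 group.

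**Figure D4:**
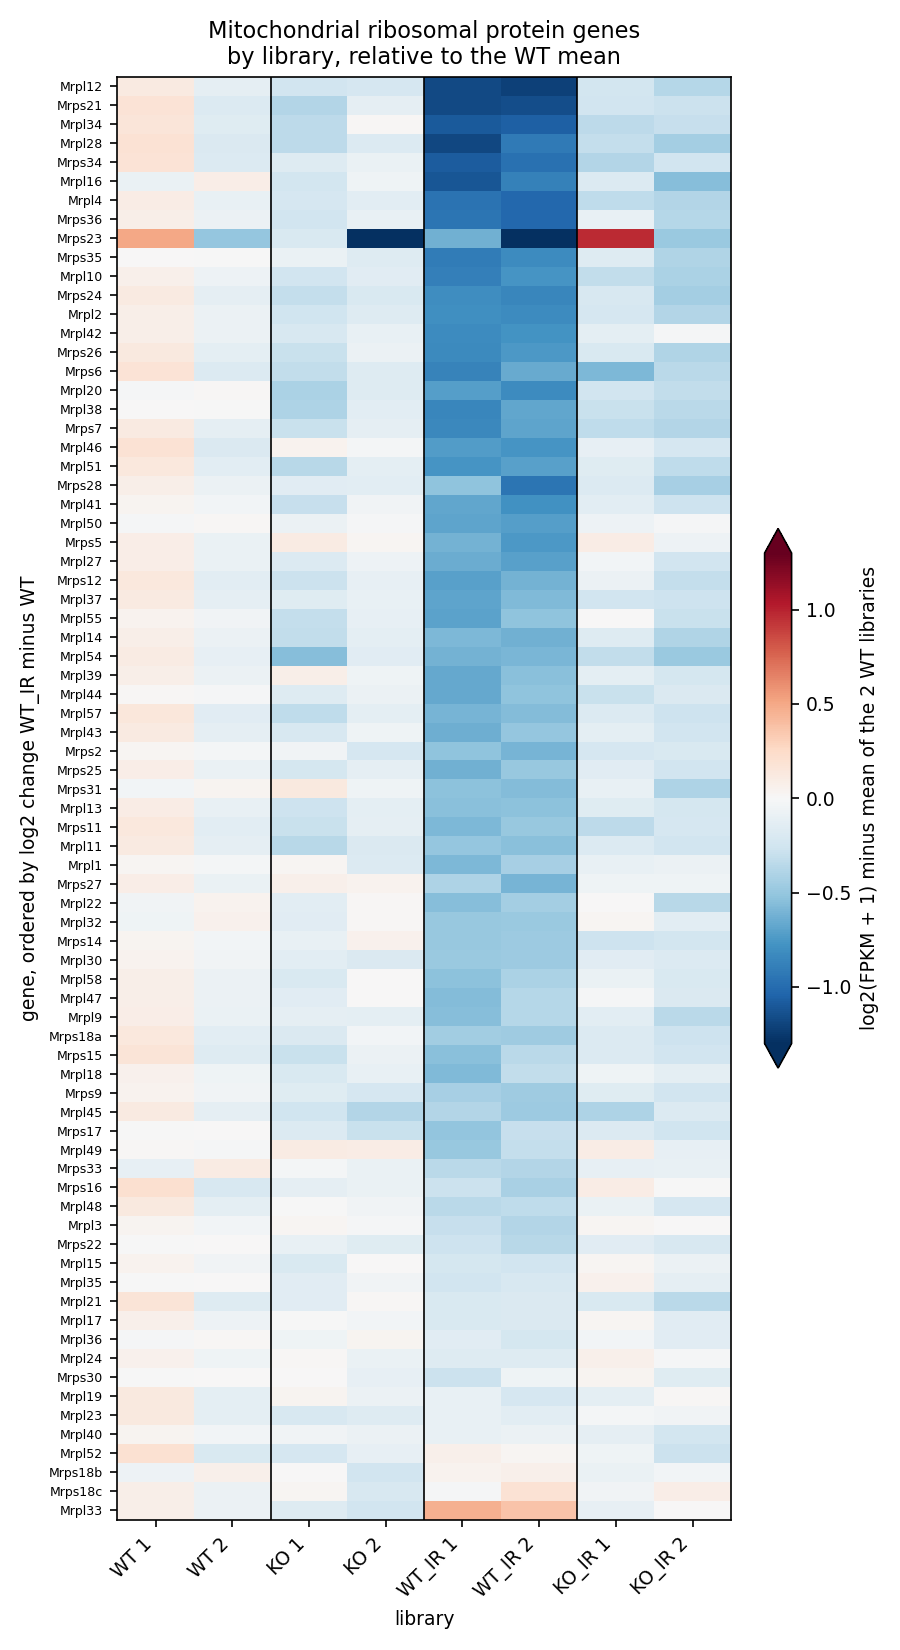
Heat map of log2(FPKM + 1) in each of the 8 libraries minus the mean of the WT libraries, for the 76 members tested, ordered by the change WT_IR minus WT; blue is lower, red higher, and the colours saturate at the ends of the bar. The WT_IR columns are the darkest blue for the upper rows, while KO, KO_IR and WT differ less, and Mrps23 varies within groups.

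After IR the knockout kidney held more of these transcripts than the wild-type kidney. The members that passed the test were 39 higher and 1 lower in KO_IR than in WT_IR, where 16.6% of all genes tested were higher and 13.5% lower. Both KO_IR libraries were above both WT_IR libraries for 66 members (33.5% of all genes) and below them for 4 (33.6%). The median log2 difference was 0.36, against -0.01 for all genes, and on the TPM scale 0.03 against -0.33, with 10 members higher and 7 lower (9.18% and 37.9% of all genes). Relative to the median of all genes it was 0.37 on both scales, a value that rescaling whole libraries leaves nearly unchanged by construction. This comparison uses the same WT_IR libraries as the change with IR in WT.

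The members with the largest differences were Mrps21 (0.89 ± 0.14) and Mrpl12 (0.89 ± 0.10), whose values in every library are given above. The adjusted p (limma) was 0.00377 for Mrps21 and 0.00124 for Mrpl12. Mrpl34 differed by 0.76 ± 0.15 and Mrps36 by 0.76 ± 0.12 on the log2 scale. Mrpl42, a large-subunit protein found in mitochondria only, stood at 11.04 and 11.42 FPKM in WT_IR and 18.43 and 20.05 FPKM in KO_IR, a difference of 0.73 ± 0.09. Mrps34 (0.71), Mrps5 (0.70), Mrpl28 (0.67), Mrpl50 (0.66) and Mrpl4 (0.64) completed the first 10. Mrps5 of the uS5 family went from 5.41 and 4.84 FPKM in WT_IR to 9.46 and 8.40 FPKM in KO_IR, and Mrpl50, a mitochondria-specific protein, from 22.4 and 21.7 FPKM to 34.8 and 36.2 FPKM. All 10 were higher in both KO_IR libraries than in either WT_IR library. Mrpl33 was the member that was lower, at -0.46 ± 0.10 (adjusted p = 0.0156, limma).

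With any single IR library left out, fewer members were called as higher in KO_IR, and fewer genes over the whole table. The median log2 difference of the members was 0.32 without KO_IR replicate 1 and 0.41 without KO_IR replicate 2. It was 0.32 without WT_IR replicate 1 and 0.39 without WT_IR replicate 2. The marker levels again differed, at 2502 and 2871 FPKM for the proximal tubule sum and 135 and 140 FPKM for the macrophage sum in KO_IR, against 724 to 950 and 302 to 320 FPKM in WT_IR. The fibroblast and pericyte sum was 58.7 and 61.0 FPKM in KO_IR, against 134 to 147 FPKM in WT_IR, and the part of these differences in the result was not tested.

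The response to IR differed between genotypes in the test of the difference itself. The interaction, the change with IR in KO minus that in WT, was above 0 at an adjusted p under 0.05 for 28 members and below 0 for none, where 9.62% of all genes tested were above and 6.68% below. Its median over the members was 0.50, against 0.0031 for all genes, and 0.09 against -0.39 on the TPM scale, where 3 members passed above 0 and 2 below (4.77% and 24.2% of all genes). With single libraries left out the members' median on the deposited scale ran from 0.43 (without WT replicate 1) to 0.59 (without WT replicate 2). In most of these fits fewer members were called, and in all of them fewer genes over the whole table. Mrps21 (1.14 ± 0.20, adjusted p = 0.0112, limma) and Mrpl12 (1.12 ± 0.14, adjusted p = 0.00527) had the largest values. Mrpl28, Mrps36, Mrpl34, Mrpl42, Mrps34, Mrpl4, Mrpl20 and Mrps24 followed, between 0.76 and 0.93. On the TPM scale Mrps21, Mrpl12 and Mrps36 still passed, at 0.71, 0.70 and 0.52.

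Ribosomal proteins of mitochondria with other gene names also fell in WT. All 5 of them passed the test as lower after IR, with a median log2 change of -0.58, while on the TPM scale none passed (-0.09). Aurkaip1 went from 45.6 and 44.3 FPKM to 28.9 and 30.4 FPKM (-0.58 ± 0.08), Gadd45gip1 from 9.65 and 9.21 FPKM to 5.71 and 6.08 FPKM (-0.60 ± 0.09), and Dap3, a small-subunit protein with GTP-binding motifs, from 14.7 and 12.3 FPKM to 8.17 and 8.59 FPKM (-0.62 ± 0.11). Chchd1 (-0.41) and Ptcd3 (-0.36) completed the list. After IR 4 of the 5 were higher in KO_IR than in WT_IR, and 0 on the TPM scale.

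Of 12 translation factors 6 fell in WT after IR and none rose (median log2 change -0.51), and 7 were higher in KO_IR than in WT_IR. By TPM 4 fell and 1 rose in WT (-0.08), and 4 were higher in KO_IR. The elongation factor Gfm1 went from 30.65 and 30.04 FPKM to 12.7 and 11.9 FPKM (-1.24 ± 0.08), and Tufm, which delivers aminoacyl-tRNA, from 94.9 and 76.1 FPKM to 39.8 and 36.7 FPKM (-1.13 ± 0.11). Taco1, the translational activator of cytochrome oxidase subunit 1, and Gfm2, a ribosome recycling factor, changed by -0.88 and -0.68. Both Gfm1 and Tufm were below their WT libraries in WT_IR without overlap, and stood at 25.9 and 24.6 FPKM and at 69.1 and 70.7 FPKM in KO_IR.

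Of 23 assembly and rRNA-modification genes tested 15 fell and none rose, with a median log2 change of -0.36, and on the TPM scale none fell and 2 rose (0.07). Rbfa, an assembly factor of the small subunit, changed by -0.63 ± 0.10, and the rRNA methyltransferases Mrm1 and Mrm2 by -0.61 and -0.73. Trmt2b, a methyltransferase of mitochondrial tRNA and rRNA, changed by -0.50. Of 20 genes of mitochondrial aminoacyl-tRNA synthesis 11 fell and none rose (-0.37), and on the TPM scale 2 fell and 1 rose (0.04). Gatb, a subunit of the amidotransferase that makes glutaminyl-tRNA, changed by -1.22 ± 0.09, and the synthetases Fars2, Iars2 and Rars2 by -0.78, -0.68 and -0.44. In each of these lists 5 genes were higher in KO_IR than in WT_IR, against 16.6% of all genes tested, and 0 and 1 were on the TPM scale. The medians of 0.22 and 0.28 were -0.09 and -0.02 on the TPM scale.

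Of 11 genes of mitochondrial transcription, mRNA handling and membrane insertion 7 fell and none rose (median log2 change -0.45, and 0.02 on the TPM scale), and 6 were higher in KO_IR than in WT_IR. By TPM 2 fell and 2 rose in WT, and 2 were higher and 2 lower in KO_IR. Letm1, an inner-membrane protein, changed by -1.32 ± 0.09, Lrpprc, which stabilises mitochondrial mRNAs, by -0.83, Tfam, which packages and transcribes mitochondrial DNA, by -0.62, and the RNA polymerase Polrmt by -0.51. Of the 13 mRNAs of mitochondrial DNA, the templates of this ribosome, 10 fell (median log2 change -1.52, and -1.0 on the TPM scale), and 11 were higher in KO_IR than in WT_IR. The genes mt-Nd2, mt-Nd4 and mt-Nd6 of complex I changed by -1.66, -1.53 and -1.41, and mt-Co3 of complex IV by -3.27. Selection for polyadenylated RNA and the short tails of mitochondrial transcripts limit how these levels can be read against nuclear genes.

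Compared with other gene families, the mitochondrial ribosome stood between the respiratory chain and the cytosolic ribosome. Of 79 nuclear genes of respiratory chain subunits 75 fell and 1 rose in WT after IR, with a median log2 change of -1.29 on the deposited and -0.79 on the TPM scale. Of 76 cytosolic ribosomal protein genes 2 fell and 31 rose (median 0.27), and on the TPM scale 67 rose (0.78). In KO_IR against WT_IR 73 respiratory chain genes were higher and 1 lower, and 22 cytosolic ribosomal protein genes were lower and none higher. These counts on the TPM scale were 62 higher and 2 lower, and 66 lower and none higher. These medians are set side by side as descriptions, and differences between the families were not tested.

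**Figure D5:**
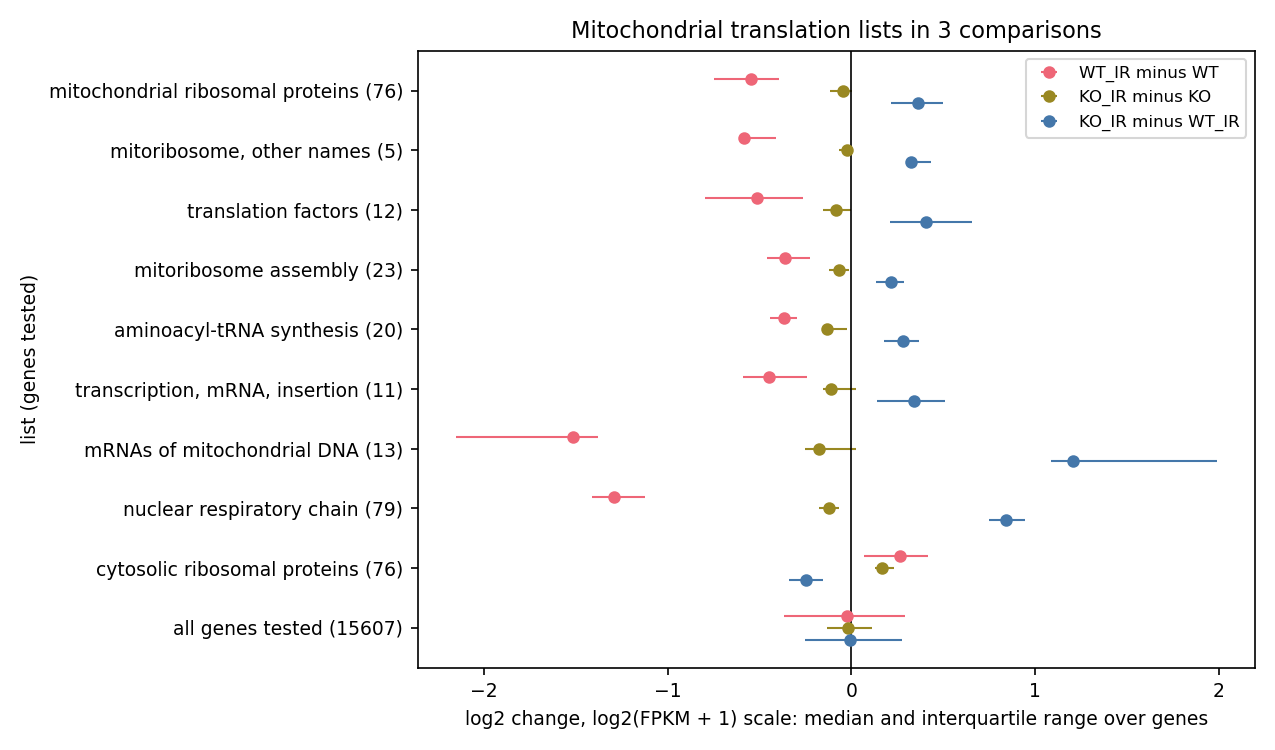
Median (point) and interquartile range (bar) of the log2 change over the genes tested in each list, for WT_IR minus WT, KO_IR minus KO and KO_IR minus WT_IR, on log2(FPKM + 1). The mitochondrial ribosomal proteins lie at -0.54, -0.05 and 0.36; on the TPM scale the WT_IR minus WT medians of the assembly, aminoacyl-tRNA and transcription lists turn slightly positive, and those of KO_IR minus WT_IR for the first 2 of these turn slightly negative.

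Of 9 regulators of nuclear genes for mitochondrial proteins 3 fell and 2 rose in WT after IR, against 23.2% and 19.1% of all genes tested, and on the TPM scale 2 fell and 6 rose. Esrra, the estrogen-related receptor alpha, went from 106 and 80.5 FPKM to 40.6 and 39.8 FPKM (-1.18 ± 0.13), and its coactivator Ppargc1a from 13.2 and 11.3 FPKM to 6.50 and 4.99 FPKM (-0.98 ± 0.15). Pprc1, a related coactivator, went from 2.69 and 2.94 FPKM to 6.03 and 5.48 FPKM (0.82 ± 0.10), and Myc from 2.52 and 3.71 FPKM to 21.8 and 24.4 FPKM (2.56 ± 0.33). The groups overlapped for none of these 4 genes. In KO_IR against WT_IR Esrra (1.10) and Ppargc1a (0.66) were higher, and Pprc1 (-0.78) and Myc (-1.58) lower. The genes of the factors whose letters were searched, named after their values were seen, did not pass the test in WT on the deposited scale. Their log2 changes there were 0.15 ± 0.11 for Nrf1, -0.09 ± 0.11 for Gabpa and -0.11 ± 0.08 for Yy1. On the TPM scale the median of the 9 regulators moved from -0.09 to 0.39, with 6 passing as higher. The result for these factors therefore applies to the deposited scale alone.

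In the GENCODE M21 annotation 60 of the 78 members share under 10% of their exon bases with another gene. At the other end 3 of the 78 members share over 50%, namely Mrpl53, Mrps34 and Mrps25, and whether fragments were counted by strand is not stated in the labels. Among the 59 tested members that share under 10%, 47 fell in WT after IR, with a median log2 change of -0.54, and 29 were higher in KO_IR than in WT_IR. The shares of all genes tested were 23.2% and 16.6%. Processed pseudogenes of Mrpl23, Mrpl48 and Mrps36 reached at most 4.41 FPKM, by Mrpl23-ps1, against 5.34 to 7.03 FPKM for Mrpl23 itself, whose value is therefore uncertain. Mrpl48-ps reached 2.70 FPKM, against 3.47 to 5.24 FPKM for Mrpl48, whose value is uncertain too.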

How the data were processed

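Polyadenylated RNA was measured in 8 kidney libraries, 2 in each of 4 groups, per the labels. FPKM values of 54251 genes were deposited by the authors after alignment with HISAT2 2.0.5 to mm10 (GRCm38.p6), per the submitters' processing notes. How fragments were counted, with which annotation, and how FPKM were made is not given in the sources used here. In every library, FPKM multiplied by gene length came out as whole multiples of a common step for 100% of genes (tolerance 1e-06), from which fragments were recovered. For a 1 kb gene, 3 fragments equal 0.148 to 0.206 FPKM, and this floor covers counting error alone.

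A single limma 3.58.1 fit (R 4.3.3) of all 8 libraries on log2(FPKM + 1), with a mean-variance trend and genes averaging 0.5 FPKM or more, leaves 4 residual degrees of freedom. Fold changes are on that scale, which understates the change of low genes. P-values were adjusted by Benjamini-Hochberg over the 15607 genes tested, at a threshold of 0.05. The fit was tested on simulated data. Alternatives were pseudocounts of 0.1 and 5 FPKM, no filter or a 5 FPKM minimum, quantile normalization, median-of-ratios factors, a TPM scale, no trend, array weights, a replicate block, voom on fragments, only the groups compared, and leaving out each library.

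Members and lists were chosen with earlier results of these data known. In WT the 8 largest falls, the 8 highest changes, the 6 highest levels and members of known role are named. In other comparisons the 10 largest called changes or the 5 smallest p are named, and for each list up to 4 genes by p.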

Additional observations from a re-analysis of the deposited data

Results flagged for a closer look

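The change with IR differed between genotypes, in the test of the interaction, for 28 members, all above 0. Of all genes tested 9.62% were called above 0 and 6.68% below. The 10 with the largest difference, as the log2 change in KO minus that in WT, were Mrps21 (1.14), Mrpl12 (1.12), Mrpl28 (0.93), Mrps36 (0.93), Mrpl34 (0.92), Mrpl42 (0.87), Mrps34 (0.84), Mrpl4 (0.81), Mrpl20 (0.77) and Mrps24 (0.76). Of these 10, Mrps21, Mrpl12 and Mrps36 also passed on the TPM scale. On that scale 3 of the 76 members passed above 0 and 2 below, where 4.77% and 24.2% of all genes tested did. No explanation of these differences was tested.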

How the results depend on the processing

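With 2 pools per group and 4 residual degrees of freedom, small changes of single members cannot be resolved. For IR in WT 61 members were called, against 23 on the TPM scale (14 lower, 9 higher) and 30 with voom (27 lower, 3 higher). Of all 15607 genes tested 23.2% fell and 19.1% rose on the deposited scale, and 9.96% and 48% on the TPM scale. With voom 1989 of the 15607 genes fell and 6284 rose. With single libraries left out the members' median log2 change ran from -0.62 to -0.47. In KO_IR against WT_IR 13.5% of all genes tested were lower and 16.6% higher, and 37.9% and 9.18% on the TPM scale. With voom 5117 of the 15607 genes were lower and 1690 higher. For KO against WT after IR 40 members were called, against 17 on the TPM scale (7 lower, 10 higher) and 14 with voom (3 lower, 11 higher). That count ran from 13 without KO_IR replicate 1 to 42, and was 16 and 20 without WT_IR replicate 1 and 2. For the interaction 28 members were called, against 5 on the TPM scale (2 lower, 3 higher), 12 with voom and 11 with no filter on low values, where more genes were tested. Of all genes tested 6.68% were lower and 9.62% higher, and 24.2% and 4.77% on the TPM scale. With voom 2657 of 15607 genes were lower and 1065 higher, and with no filter 702 and 968 of 29649. Without most single libraries fewer members were called, and without any of them fewer genes over the whole table. The members' median interaction in the fits without single libraries ran from 0.43 to 0.59. The fits without single libraries take a lone library to be as variable as the rest. The TPM scale removes the scaling already in the deposited WT_IR values; other causes were not tested. Under all other settings tried with 2 libraries per group these counts moved by less than 1.5 times. The median-of-ratios factor was 1.011 in all 8 libraries. The deposited values thus already stood on that scale, and this setting could hardly change a count. IR in KO and KO against WT without IR gave 0 members under every setting tried.

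Named genes changed sign for IR in WT on the TPM scale, in Mrpl19 (0.27), Mrpl23 (0.35), Mrpl40 (0.42), Mrpl45 (0.064), Mrpl58 (0.0029), Mrps18a (0.018) and Mrps30 (0.25). With voom it was Mrpl19 (0.14), Mrpl23 (0.22), Mrpl40 (0.27) and Mrps30 (0.13), with quantile normalization Mrpl40 (0.10), and without single libraries the values ran from -0.251 to 0.010 in Mrpl23, -0.0083 to 0.1241 in Mrps18b, -0.15 to 0.2396 in Mrpl52 and -0.011 to 0.184 in Mrps18c.

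With the replicate block 61, 0, 0, 37 and 23 members were called for IR in WT, IR in KO, KO against WT without IR, KO against WT after IR and the interaction. Over all genes tested, libraries with the same number did not deviate together (correlations from -0.122 to 0.164), which cannot exclude a pairing that affects some genes. The block changed no count by 1.5 times.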
